A study of Homo sapiens with 7 samples.

Results

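TUT1, USB1, MEPCE, LARP7 and SSB encode proteins that finish or hold U6 small nuclear RNA and 7SK RNA, through uridylation, trimming, capping and La-type binding. These 5 genes, with 20 guides, were taken by name from 19112 targeted genes and 77441 guides in a genome-wide knockout screen. They were chosen by function and by their measured sorted-over-input values, which were already known, so that comparison is given for them as a description without a test. The input-over-library values were not part of the choice. Their numerator is the input, which is also the denominator of the sorted-over-input values, so the measures are not independent.

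The screen asked which genes, once cut, raised GFP from a splicing reporter built around the detained intron of OGT, the gene for O-GlcNAc transferase. HCT116 cells, a human colorectal carcinoma line, carried the reporter at the AAVS1 safe-harbour locus in a clonal line, so every value comes from 1 reporter background. All cell libraries came from cells infected at a multiplicity of 0.3 with Brunello, a genome-wide library of knockout guides, kept in puromycin for 8 days from day 2, and given 1 µM thiamet G (TG) for 24 h from day 9, with fresh TG every 12 h. TG blocks O-GlcNAcase, which removes O-GlcNAc from proteins. On day 10 the cells with high GFP were collected as the sorted group (3 libraries) and unsorted cells served as the input group (3 libraries), and both groups used here were treated with TG. The guide library itself was sequenced once. Library numbers 1 to 3 follow the order of the deposited values, and the pilot grown at 100-fold coverage cannot be told apart from those at 300-fold. Cell libraries held 26.2 to 31.0 M reads with 263 to 321 reads for the median guide, and the guide library held 35.8 M reads. No read was found for 0.173 to 0.227% of guides in input, against 7.80, 10.8 and 7.26% in sorted libraries 1, 2 and 3.

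U6 is the catalytic RNA of the spliceosome, and 7SK is an abundant RNA that holds the elongation kinase P-TEFb inactive. Both are made by RNA polymerase III, which stops at a run of T, so both begin life with a U tail. La, the product of SSB, binds new polymerase III transcripts at that tail. TUT1 adds uridines to the U6 tail, and USB1 trims the tail back and leaves a phosphate end on which the LSm2-8 ring then sits. MEPCE puts a methyl group on the first phosphate of 7SK and of U6. LARP7 holds the 3′ end of 7SK and also helps methylation within U6, away from that first phosphate.

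The 3′ ends of both RNA genes are shown because all 5 proteins act on these transcripts or bind them. The sequences were read from GRCh38 with GENCODE 44, and capitals mark the terminal run of T. RNU6-1 lies on the minus strand at chr15:67839939-67840045 (107 bases) and ends in 5 T. RN7SK lies on the plus strand at chr6:52995621-52995948 (328 bases), and its run of 4 T reaches 3 bases past the annotated end.
RNU6-1, last 30 bases: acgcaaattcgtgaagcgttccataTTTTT
RN7SK, 30 bases through the T run: gcgctgcatgtggcagtctgcctttcTTTT

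The guides against TUT1 and MEPCE are printed because these genes had the highest values of the group. Each is given in lower case with the PAM, the NGG that Cas9 needs beside its target, in capitals. All 20 guides matched coding exons of the MANE Select transcripts in GRCh38, and each had a perfect site with an NGG there. The TUT1 guides, all on the plus strand of chromosome 11 against a gene on the minus strand, cut in exons 1, 5, 6 and 9 of 9, at residues 23, 354, 410 and 502 of 873. Guides are numbered from the start of the protein.
TUT1 guide 1, chr11:62591401-62591420: tacggttggctgtagtaacgTGG
TUT1 guide 2, chr11:62578643-62578662: tttggactcgatacaccccaGGG
TUT1 guide 3, chr11:62577208-62577227: cagcggagggtgtacacgagGGG
TUT1 guide 4, chr11:62576198-62576217: aagatcccaacaagatacacAGG

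The MEPCE guides all cut in exon 1 of 4 on chromosome 7, at residues 64, 134, 210 and 265 of 688. This stretch is coding in only 1 of 6 annotated coding transcripts of MEPCE, the MANE Select one. Guides 1 and 2 lie on the minus strand, guides 3 and 4 on the plus strand.
MEPCE guide 1, chr7:100430206-100430225: gctttcccgaccgaccgcagCGG
MEPCE guide 2, chr7:100430415-100430434: tggggctgatagccattgcgGGG
MEPCE guide 3, chr7:100430630-100430649: agtgagccgcactctcaacgCGG
MEPCE guide 4, chr7:100430796-100430815: cggaagcggcatagacaccgGGG

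By the mean over guides, the 5 genes ranked from near the top to near the bottom of the screen. Gene values are the mean over a gene's guides of log2(normalised count + 1), with the difference between 3 sorted and 3 input libraries given ± SE from limma. MEPCE stood at 1.93 ± 0.76 and TUT1 at 1.55 ± 0.31, whereas USB1 stood at -0.24 ± 0.50, SSB at -1.31 ± 1.01 and LARP7 at -2.17 ± 1.38. The median of all genes was -0.56 and that of the non-targeting guides was -0.08, so the zero of this scale is not the middle of the screen. Relative to the median gene, TUT1 lay 2.11 and MEPCE 2.49 higher on the log2 scale. For scale, OGT was at 5.23 ± 0.22. By rank of this value among 19112 genes, MEPCE was at 18, TUT1 at 44, USB1 at 6421, SSB at 15106 and LARP7 at 18099. The ranks depended on the summary. By the gene ranking used for calls, TUT1 was at 12, MEPCE at 88, USB1 at 330, SSB at 5669 and LARP7 at 12604. By the sorted-over-input ratio of sums over guides, MEPCE was at 7, TUT1 at 55, USB1 at 133, LARP7 at 9208 and SSB at 12542. Neighbours in the order of the gene values had library values that overlapped, except TUT1 and USB1. These did not overlap and differed by 1.79 with a combined SE of 0.59, which takes the genes as independent though the same libraries gave both. The USB1 mean includes guide 1 at -4.35. By sums over guides the log2 ratios were 1.74 for TUT1 and 1.35 for USB1, and their sorted sums overlapped.

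**Figure D1:**
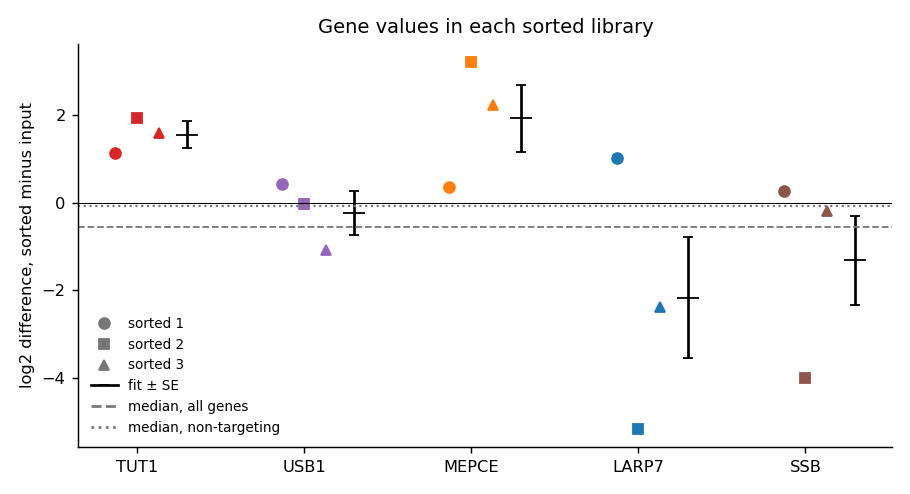
Log2 difference between each sorted library and the mean of the 3 input libraries (y axis) for the 5 genes (x axis), with coloured circles, squares and triangles for sorted libraries 1, 2 and 3 and black bars for the limma difference ± SE. TUT1 lies between 1.14 and 1.92 in all 3 libraries, whereas LARP7 runs from 1.02 to -5.16.

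By the gene ranking at an adjusted p of 0.05, 1 of the 5 genes, TUT1, was enriched among sorted cells, beside 0.314% of all genes tested. None of them was depleted, beside 0.00523% of all genes (1 gene, with 1056 at an unadjusted p under 0.05). None was called by limma on gene means, which called 0.0157% of all genes (3 genes, with 3031 genes at an unadjusted p under 0.05). The choice of the 5 genes used this contrast, so these counts describe them only.

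TUT1, the U6 uridylyltransferase, was higher in every sorted library, by 1.14, 1.92 and 1.58 on the log2 scale over the mean input. Guide 1 had normalised counts of 127, 158 and 107 in input libraries 1, 2 and 3, and 625, 573 and 1271 in sorted libraries 1, 2 and 3, a log2 fold change of 2.57 ± 0.43. Guide 2 had 296, 356 and 344 in input and 578, 1147 and 1085 in sorted cells (1.43 ± 0.33). For these guides every sorted value lay above every input value. Guide 3 did the same, with 331, 280 and 279 in input and 669, 735 and 1197 in sorted cells (1.50 ± 0.31). Guide 4, which cut closest to the end of the protein and in the last exon, had 68.3, 97.2 and 98.9 in input and 109, 481 and 54.0 in sorted cells (0.70 ± 1.19). Here sorted library 3 fell below all input values and the groups overlapped. Summed over its guides, TUT1 had normalised counts of 823, 891 and 829 in input and 1981, 2936 and 3607 in sorted cells, a ratio of 3.35. The TUT1 call was lost without sorted library 2 (1.36) and without sorted library 3 (1.53).

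MEPCE, the capping enzyme of 7SK, had the largest value of the 5, yet the libraries differed more, at 0.36, 3.20 and 2.22 in sorted libraries 1, 2 and 3. Guide 1 had normalised counts of 71.6, 79.7 and 49.4 in input and 463, 402 and 478 in sorted cells, 2.75 ± 0.67 on the log2 scale. Guide 3 had 115, 76.2 and 30.4 in input and 366, 738 and 800 in sorted cells, 3.20 ± 0.72, which placed it at rank 20 among all guides tested. Both guides were higher in each sorted library than in any input library. Guide 4 was too, with 49.4, 42.9 and 59.0 in input and 188, 631 and 186 in sorted cells (2.47 ± 1.02). Guide 2 broke the pattern, with 132, 123 and 60.7 in input and 0.905, 856 and 148 in sorted cells (-0.69 ± 2.24), where the value in sorted library 1 was a single read. In sorted library 1 the other MEPCE guides stood at 188 to 463. All 4 guides were sparse before the sort, with mean input counts of 50.4 to 105 against 264 for the median guide. Summed over guides, MEPCE had 368, 321 and 200 in input and 1019, 2628 and 1612 in sorted cells, a ratio of 5.91 and rank 7 of all genes by that ratio. Without sorted library 2 its log2 fold change was 1.29, and without sorted library 1 it was 2.71. MEPCE stood at rank 88 of the enrichment ranking and was not called, but was called with edgeR (2.38) and with DESeq2 (2.37) on recovered reads.

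**Figure D2:**
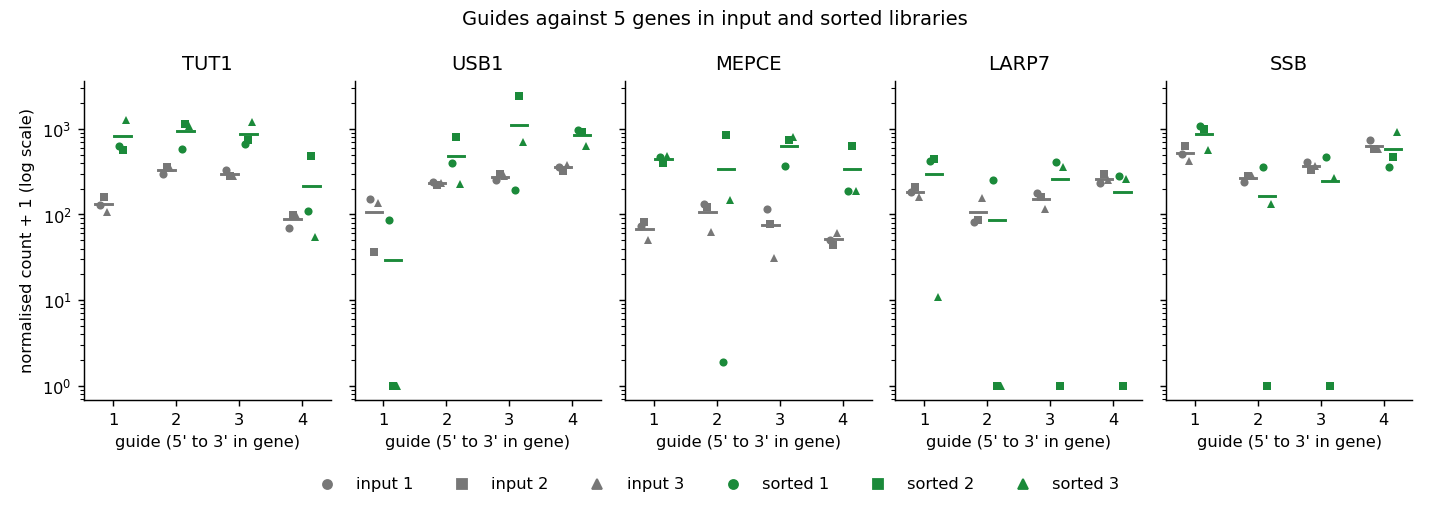
Normalised count plus 1 on a log axis (y axis) of the 20 guides, grouped by gene and ordered along the protein (x axis), with input libraries in grey, sorted libraries in green and a bar at each group mean. In TUT1 and MEPCE 3 of 4 guides each had all green points above all grey ones, and points at 1 are guides without a read.

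USB1, the exonuclease that trims U6, split by guide. The guides are shown because guide 1 differed in sign from the other 3. They cut in exons 2, 2, 3 and 5 of 7 on chromosome 16, at residues 67, 85, 108 and 168 of 264. Guide 1 lies on the plus strand and the others on the minus strand.
USB1 guide 1, chr16:58002564-58002583: gatgacagcacaaaacacggGGG
USB1 guide 2, chr16:58002631-58002650: ctcacatggtacatagacgtGGG
USB1 guide 3, chr16:58009983-58010002: cagccgggggacatatgtctGGG
USB1 guide 4, chr16:58017331-58017350: caagcccaataaaggtcctgGGG

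USB1 guide 1 had normalised counts of 150, 35.0 and 134 in input and 85.9, 0 and 0 in sorted cells, -4.35 ± 2.11 on the log2 scale. At a count of 0 the floor of 3 reads stood at 3.43 normalised counts in sorted library 2 and 2.70 in sorted library 3. The other 3 guides were positive. Guide 2 had 239, 218 and 232 in input and 400, 807 and 229 in sorted cells (0.87 ± 0.50). Guide 3 had 251, 298 and 280 in input and 190, 2446 and 696 in sorted cells (1.31 ± 0.80), so that sorted library 2 held most of its reads. Guide 4 had 362, 319 and 382 in input and 967, 920 and 627 in sorted cells (1.22 ± 0.28) and was the only USB1 guide without overlap. The mean over guides was -0.24, whereas the median over guides was 0.83, and edgeR on summed reads gave 1.15. Summed over guides, USB1 had 1001, 869 and 1028 in input and 1643, 4174 and 1551 in sorted cells, a ratio of 2.54 with no overlap. USB1 was not called under any setting tried.

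LARP7, the La-related protein of the 7SK particle, had the lowest mean of the 5, and its libraries went opposite ways, at 1.02 in sorted library 1, -5.16 in sorted library 2 and -2.37 in sorted library 3. Its guides cut in exons 4, 6, 7 and 7 of 13 on chromosome 4, at residues 109, 196, 291 and 328 of 581. In sorted library 1 all 4 guides were at or above their mean input, with normalised counts of 419, 253, 411 and 278 for guides 1 to 4. In sorted library 2 guide 1 had 449 and guides 2, 3 and 4 had 0. In sorted library 3 guides 1 to 4 had 9.90, 0, 355 and 262. Input counts were 183, 206 and 160 for guide 1, 80.6, 85.8 and 154 for guide 2, 178, 161 and 114 for guide 3, and 232, 295 and 251 for guide 4. The groups overlapped for every LARP7 guide. Summed over guides, LARP7 had 674, 748 and 678 in input and 1360, 449 and 627 in sorted cells, a ratio of 1.16 beside a median ratio of 1.15 over all genes. The log2 fold change was -0.68 without sorted library 2 and -3.76 without sorted library 1. The negative mean on the log2 scale turned to 0.061 with edgeR and 0.057 with DESeq2.

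SSB, the gene for La, also had a negative mean set in sorted library 2, at 0.26, -4.01 and -0.19 in sorted libraries 1, 2 and 3. Guide 1 had normalised counts of 510, 628 and 423 in input and 1067, 992 and 565 in sorted cells (0.71 ± 0.33). Guide 4 had 739, 575 and 580 in input and 355, 473 and 922 in sorted cells (-0.22 ± 0.38). These guides were read in every library, and in both the groups overlapped. Guide 2 had 237, 280 and 277 in input and 359, 0 and 133 in sorted cells (-2.86 ± 2.15). Guide 3 had 413, 331 and 366 in input and 469, 0 and 265 in sorted cells (-2.88 ± 2.17). Without sorted library 2 the value of SSB was 0.034. Summed over guides, SSB had 1898, 1814 and 1646 in input and 2251, 1465 and 1886 in sorted cells, a ratio of 1.05.

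SSB guides also matched processed pseudogenes, copies of its spliced message elsewhere in the genome. The SSB guides cut in exons 3, 5, 6 and 9 of 12 on chromosome 2, all on the plus strand, at residues 30, 128, 170 and 265 of 407. Guides 3 and 4 are printed because each had a second perfect site with an NGG. For guide 3 this was SSBL3P at chr12:45072132-45072151, and for guide 4 SSBL2P at chrX:62779891-62779910. Guide 2 matched SSBL4P on chromosome 1 and LARP7 guide 2 matched a site on chromosome 12, both without an NGG, so values of SSB guides 3 and 4 come from guides with more than 1 possible cut.
SSB guide 3, chr2:169807010-169807029: aagaaatttgtagagaccccTGG
SSB guide 4, chr2:169810391-169810410: aaatggatagacttcgtcagAGG

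Across the 20 guides, 7 had every sorted value above every input value, beside 9.04% of all guides tested and 8.20% of non-targeting guides. These were TUT1 guides 1, 2 and 3, MEPCE guides 1, 3 and 4 and USB1 guide 4. None had every sorted value below every input value, beside 7.47% of all guides, and the other 13 overlapped. By sums over guides 3 of the 5 genes (TUT1, USB1 and MEPCE) had every sorted sum above every input sum, beside 17.7% of all genes. All 20 guides were read in each input library, but 6 had no read in sorted library 2 and 2 had none in sorted library 3, against 0 in sorted library 1. Of the 6, LARP7 held 3, SSB 2 and USB1 1. Non-targeting guides ran from -1.56 to 0.63 between their 5th and 95th percentiles of log2 fold change, and all tested guides from -3.80 to 0.97. The part of such missing reads in the gene values was not tested.

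Before the sort, guides against TUT1 and MEPCE had dropped in the input cells relative to the guide library, while those against LARP7 and SSB had not. The sources describe the guide library either as plasmid or as unselected cells, so the start of this comparison is not settled. It had 1 guide library, so no test was made, and each value is the log2 ratio scaled to the median guide ± SD over 3 input libraries. MEPCE was lowest at -1.44 ± 0.43, or 0.369-fold, with -1.10, -1.29 and -1.93 in input libraries 1, 2 and 3. TUT1 was at -1.04 ± 0.11, or 0.487-fold, with -1.12, -0.92 and -1.07. Among 19112 genes ordered from the most depleted, MEPCE was at rank 87 and TUT1 at rank 253. At or below -1 were 2 of the 5 genes, beside 1.49% of all genes. USB1 followed at -0.63 ± 0.31 and rank 982, with input library 2 at -0.99 and the others at -0.46. LARP7 stood at 0.07 ± 0.06 and SSB at 0.23 ± 0.08, close to the median gene at -0.01. Non-targeting guides were at 0.32, so when scaled to them LARP7 was at -0.26 and SSB at -0.10, below zero, while TUT1 was at -1.36 and USB1 at -0.96.

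**Figure D3:**
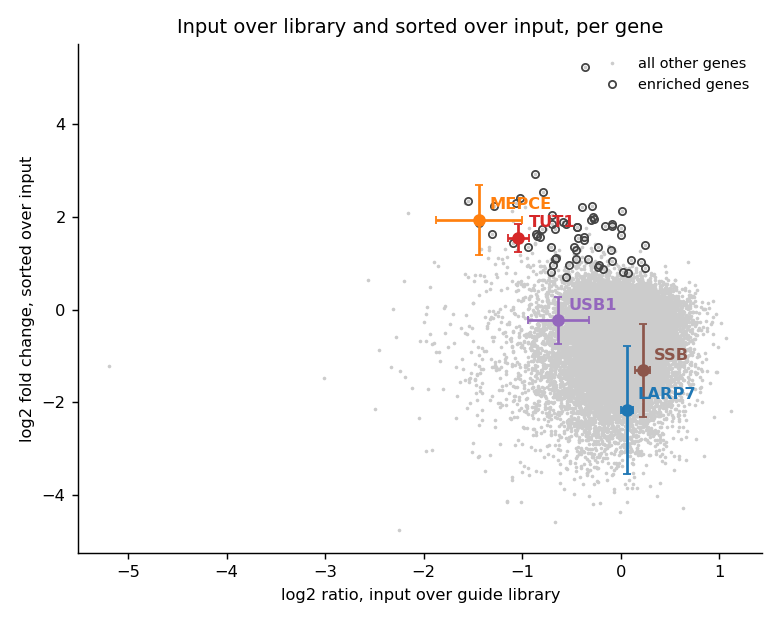
Log2 ratio of input over the guide library (x axis) against log2 fold change of sorted over input (y axis) for all genes (grey points), with enriched genes as open circles and the 5 genes in colour with SD on the x axis and SE on the y axis. TUT1 and MEPCE lie to the upper left, at -1.04 and -1.44 on the x axis, LARP7 and SSB lie low near 0 and USB1 lies between. The input counts enter both axes.

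The guides of a gene did not lose equally before the sort. TUT1 guide 4 fell furthest of its gene, by 1.70 ± 0.30 (SD) on the log2 scale from 427 reads in the guide library, and guide 2 fell least, by 0.54 ± 0.14 from 720 reads. Within MEPCE the ratios were -0.91, -1.12, -1.84 and -1.88 for guides 1 to 4, from 186, 325, 350 and 280 library reads. Every guide of TUT1 and MEPCE was thus below the guide library. In USB1 guide 1 was at -1.94 ± 1.15 and guide 4 at -0.67 ± 0.13, whereas guides 2 and 3 were at -0.06 and 0.14. The USB1 guide lowest before the sort was the one without reads in 2 sorted libraries. LARP7 guides ran from -0.20 to 0.45 and SSB guides from -0.29 to 0.73. The highest ratios of SSB, 0.67 ± 0.16 and 0.73 ± 0.21, belonged to guides 3 and 4, those with a second site.

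**Figure D4:**
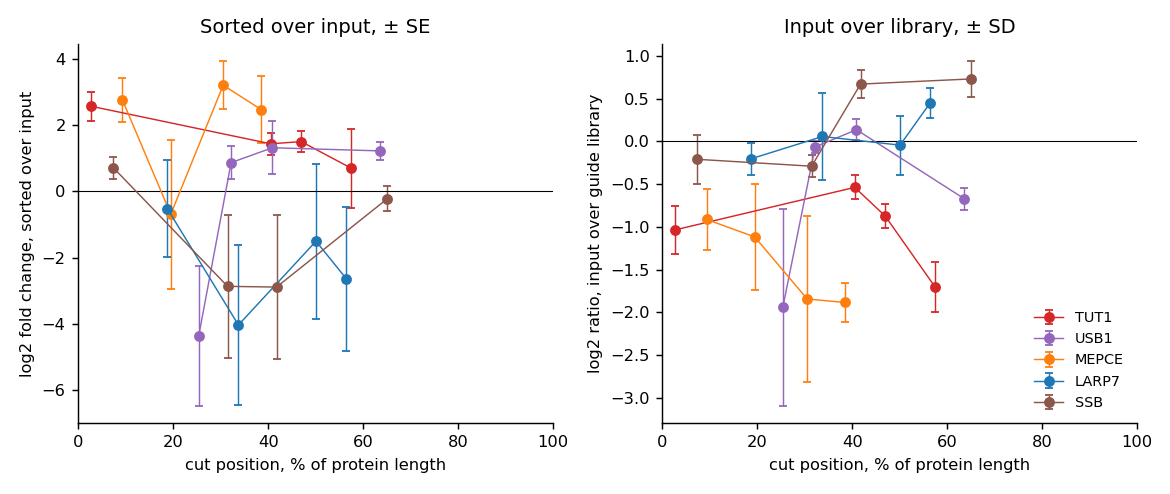
Cut position as percent of protein length (x axis) against log2 fold change of sorted over input ± SE (left) and log2 ratio of input over the guide library ± SD (right) for the 20 guides, with thin lines joining guides of 1 gene. The guides reach from 2.63% of TUT1 to 65.1% of SSB, and in USB1, MEPCE and SSB a single guide has the sign opposite to the others on the left.

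Genes related to these proteins were taken as 7 lists with 39 genes, all measured. Some lists hold U6 or 7SK partners, and the others hold relatives by protein family or enzyme type. By the same ranking 2 of the 39 were enriched, beside 0.314% of all genes, and 0 were depleted, with 6 and 2 at an unadjusted p under 0.05. With edgeR, with DESeq2 and without input library 3 the counts were 3 and 0, SART3 being the third. The lists were chosen with earlier results of these data known, so these counts describe them only. Both genes called by the ranking were in the LSm2-8 ring, which binds the U6 tail once USB1 has trimmed it. LSM2 was at 1.62 ± 0.27 and LSM4 at 1.56 ± 0.33, and the 7 ring genes had a median of 0.39 beside -0.56 for all genes. The other ring genes ran from -0.77 to 0.96, and none of them was called. Without sorted library 1 or 2 neither LSM2 nor LSM4 was called, and without sorted library 3 only LSM4 was. With only guides at a mean input count of at least 200, neither was called. The ring's input-over-library median was -0.31. In the U6 recycling list SART3, which rejoins U6 with U4, was at 1.30 ± 0.33. METTL16, the m6A methyltransferase of U6, was at 0.23 ± 0.32. Neither was called by the ranking with all libraries.

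Under none of the ranking settings tried was a gene called in the lists of 7SK partners, La-related proteins, terminal nucleotidyltransferases, small RNA 3′ nucleases or cap methyltransferases. HEXIM1, the 7SK-bound inhibitor of P-TEFb, was the highest of the 5 partners of 7SK at 0.54 ± 0.40, and CCNT1, the cyclin of P-TEFb, lowest at -2.26 ± 0.87, with a list median of -0.64. Among 5 La-related proteins the median was -1.34, from LARP1B at -0.47 ± 0.54 to LARP4, which binds poly(A) tails, at -2.35 ± 1.04. The 9 other terminal nucleotidyltransferases and poly(A) polymerases had a median of -0.35. PAPOLB was highest at 0.02 ± 0.20 and PAPD4 (TENT2) lowest at -2.38 ± 0.68. All 9 lay below the 1.55 of TUT1, but only 0.225% of all genes lay above TUT1, so this does not set the list apart.

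The 6 other 3′ nucleases had a median of -1.06. DIS3, the exosome nuclease, was at 1.05 ± 0.39 and EXOSC10, its nuclear partner, at -2.22 ± 0.79. Among 5 cap methyltransferases, CMTR1 was highest at -0.0047 ± 0.57 and BCDIN3D, a relative of MEPCE, lowest at -2.85 ± 0.64, with a list median of -0.23. Over all 39 genes the median was -0.39, and 21 lay above the median of all genes. Over the 5 genes described here it was -0.24, and 3 lay above.

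**Figure D5:**
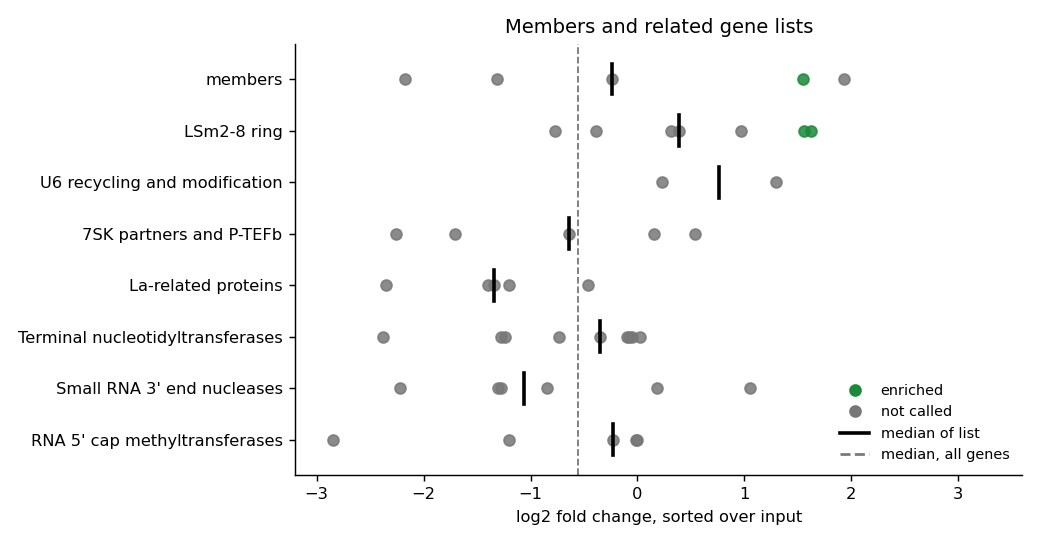
Log2 fold change of sorted over input (x axis) of the 5 genes (top row, members) and of 39 genes in 7 related lists (y axis), with a point for each gene, green where the ranking called it enriched, and a black bar at the list median. LSM2 and LSM4 are the only green points beside TUT1, and the dashed line marks the median of all genes at -0.56.

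Genes with the most similar pattern were found by Euclidean distance over 4 values, the 3 sorted-minus-input differences and the input-over-library ratio, among 19052 genes with at least 4 guides. Closest to TUT1 were HMGA1 at a distance of 0.245 and LSM2 at 0.377. MEPCE had TAF6 at 0.668 and SF3B2 at 1.04, so its nearest genes were farther away than those of TUT1. USB1 was closest to FBXO15 (0.247) and ORM1 (0.260). For LARP7 they were OR5I1 (0.436) and TMEM229A (0.489), and for SSB KANK1 (0.159) and PIH1D2 (0.209). OR5I1 encodes an olfactory receptor. Sorted library 2 was at -5.45 in OR5I1 and at -4.00 in KANK1, near the -5.16 of LARP7 and the -4.01 of SSB. That library was among the 4 values matched, so this nearness follows from how the genes were chosen.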

How the data were processed

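Genome-wide knockout screen libraries from HCT116 cells (3 input, 3 sorted, 1 guide library) were analysed. By the submitters' processing notes, reads were checked with FastQC 0.11.9, trimmed with cutadapt 3.3 and tested with MAGeCK (version not given in the sources used here). The authors deposited a normalised count per guide and library, reads times 1 factor per library, and a raw count per guide for the guide library, which the sources describe either as unselected cells or as plasmid. The authors' fold changes, p-values and scores were not used. Whole reads were recovered within 0.1 for 99.9974 to 100% of values. No molecular identifiers were used, so floors cover counting error only.

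Of 77441 guides, 77388 (not at 0 in all 6 libraries) were tested with limma 3.58.1 (R 4.3.3, eBayes with trend) on log2(normalised count + 1). The added 1 understates changes between low counts, but a count of 0 against a high count still gives a large change. With a pseudocount of 10, USB1 moved from -0.24 to 0.27, LARP7 from -2.17 to -1.05 and SSB from -1.31 to -0.76. Genes were ranked by robust rank aggregation of one-sided guide p-values (alpha 0.25, exact null) with Benjamini-Hochberg adjustment over 19112 genes. Gene log2 fold changes came from limma on means over guides. The guide p-values and those of limma on gene means measure the spread between libraries labelled as biological replicates. The p-values of the gene ranking measure how high a gene's guides rank. They take the guides as independent, though the same 6 libraries gave all of them. Scripts were tested on simulated data. Counts there were drawn independently for each guide and library, with no extra missing reads added, so this does not cover the zeros in sorted libraries. Alternatives were edgeR 4.0.16 and DESeq2 1.42.0 on recovered reads, other pseudocounts, filters, scalings and gene summaries, and leaving out each library.

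Guides were matched to GRCh38 (GENCODE 44) as 20 bases followed by NGG. The genes and the related lists were chosen with earlier results of these data known. Named were all members, list genes that passed (otherwise the highest and lowest) and, for each member, the 2 nearest genes. The mean-input filter and the sums over guides were added after seeing the data. OGT, for scale, was chosen after its values were seen.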

Additional observations from a re-analysis of the deposited data

How the results depend on the processing

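No paired analysis was possible because replicate numbers are not attached to the deposited values, and the planned block was not run. The 60 enriched genes became 19 with guides at a mean input count of at least 200 (a filter chosen after seeing the data) and 3 with limma on gene means, and ranged from 19 to 62 on leaving out 1 library. The 1 depleted gene became 0 in 10 of 16 settings, among them a pseudocount of 10, a mean count of at least 30, edgeR, DESeq2, limma on gene means and the mean input of at least 200. TUT1 stayed positive in all 17 alternatives and lost its call without sorted library 2 or 3 and, as a test of gene means, with limma. Leaving out 1 library moved TUT1 from 1.36 to 1.75. MEPCE stayed positive, from 1.29 to 2.71 without 1 library and not called in any of these, and passed with edgeR (2.38) and DESeq2 (2.37). Under the mean input filter it had no guide left. USB1 turned positive with a pseudocount of 10 (0.27), edgeR and DESeq2 (1.15), the median over guides (0.83), the mean input filter (1.13) and the sum over guides (1.35). Leaving out 1 library moved USB1 from -0.56 to 0.19. LARP7 turned to 0.061 with edgeR, 0.057 with DESeq2 and to 0.22 by sums, and ranged from -3.76 to -0.68 without 1 library. SSB turned to 0.064 by sums, and ranged from -2.10 to 0.034 without 1 library. Scaled to non-targeting guides, input over library moved to -1.36 for TUT1 and -0.96 for USB1, and reversed to -0.26 for LARP7 and -0.10 for SSB. The median of all genes moved from -0.56 to -0.77 at equal totals, to 0.03 with edgeR and to -0.30 with a pseudocount of 10. Counts of guides without overlap were 7 and 0 also under both scalings tried for them, equal totals and equal non-targeting medians. The causes were not tested. Sorted values of 0 (8 of 60 over the 20 guides) limit what these libraries show.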
